A study of Mus musculus with 2 samples.

Results

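The microRNA genes described here were the 165 genes with a microRNA symbol (Mir followed by a digit, or Mirlet7, and not a host gene symbol ending in hg) that had at least 10 counts summed over both libraries. They were 165 of 1180 microRNA genes (14.0%) and of 50559 genes in all. Both libraries were made from GFP+ keratinocytes, the epithelial cells of the epidermis and hair follicle, sorted by flow cytometry as live cells from dorsal mouse skin at postnatal day 21, when hair follicles rest (telogen). The genotype in both was Polr2b.fl.fl.GFP; K14Cre, which pairs a floxed allele of an RNA polymerase II subunit gene and a GFP reporter with a Cre recombinase driven by the keratin 14 promoter, active in the basal epidermis and its progeny. The 2 libraries formed a single group, so no condition could be compared (no library without the Cre was analysed here), and every comparison of replicate 2 with replicate 1 below compares 2 libraries. Total RNA was depleted of ribosomal RNA and sequenced as 150-base read pairs, and no selection for small RNA was described. The counts are therefore read here as reads from primary transcripts that span the hairpin, not as mature microRNA. The summed count chose the genes, so their levels are a description without a test.

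A microRNA gene is transcribed, usually by RNA polymerase II, into a long primary transcript that folds into a hairpin. The nuclear enzyme Drosha, with its partner Dgcr8, cuts the hairpin out, exportin-5 carries it to the cytoplasm, Dicer trims it, and an Argonaute protein holds the mature strand. The seed, bases 2 to 8 of the mature strand, is the main part that pairs with target mRNAs. Many hairpins lie in introns of protein-coding genes or in exons or introns of long noncoding RNAs, and several hairpins can share a primary transcript. In skin, miR-205 and the miR-200 family are known epithelial microRNAs, and miR-203 is known for its role as epidermal cells leave the basal layer.

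The mature sequences below, from RefSeq on GRCm38.p6, are those of the microRNA genes that the results turn on, and capitals mark the seed. The first set comes from the hairpins with the most counts, among them the miR-23a, miR-27a and miR-24-2 cluster.
miR-6236: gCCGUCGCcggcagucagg
miR-24-3p: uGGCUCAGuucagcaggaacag
miR-27a-3p: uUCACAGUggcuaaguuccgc
miR-23a-3p: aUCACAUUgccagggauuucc
miR-1938: cGGUGGGAcuuguaguucgguc
miR-3109-5p: aAUGGAUGcgaugguucccaugcu
miR-511-3p: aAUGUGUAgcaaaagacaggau

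The second set shows cluster or family partners that carry the same seed, so that their counts can be read together. The seed GCUACAU is shared by miR-221 and miR-222, AGCACCA by miR-29a and miR-29b, AGCAGCA by miR-15a and miR-16, and GAGGUAG by let-7c and miR-98.
miR-221-3p: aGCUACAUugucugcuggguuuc
miR-222-3p: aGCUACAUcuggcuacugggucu
miR-29a-3p: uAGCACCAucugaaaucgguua
miR-29b-3p: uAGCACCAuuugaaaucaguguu
miR-15a-5p: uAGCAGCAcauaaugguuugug
miR-16-5p: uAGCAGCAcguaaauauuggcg
let-7c-5p: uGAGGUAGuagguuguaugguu
miR-98-5p: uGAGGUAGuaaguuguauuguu

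The third set holds the epithelial microRNAs whose genes reached 10 counts, and miR-193b and miR-3068, whose genes differed most between the libraries in the upward direction among those with over 30 counts. Their seeds were not shared with each other.
miR-205-5p: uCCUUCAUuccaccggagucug
miR-200c-3p: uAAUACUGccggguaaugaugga
miR-200a-3p: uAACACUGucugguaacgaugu
miR-193b-3p: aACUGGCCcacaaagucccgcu
miR-3068-5p: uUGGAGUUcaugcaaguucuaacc

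The hairpins of Mir24-2 and Mir205 are given whole because a read had to overlap such a stretch to be counted, and capitals mark both mature arms.
Mir24-2 hairpin: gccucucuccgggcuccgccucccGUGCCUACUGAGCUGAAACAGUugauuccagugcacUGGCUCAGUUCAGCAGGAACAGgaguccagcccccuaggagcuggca
Mir205 hairpin: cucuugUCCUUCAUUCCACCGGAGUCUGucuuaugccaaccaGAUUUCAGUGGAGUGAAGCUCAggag

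The RefSeq table held a hairpin for 135 of the 165 genes and a mature sequence for 147, with 238 mature sequences and 227 different seeds. Only 10 seeds were shared, by 19 genes. The GC content of the hairpins ran from 31.2% to 68.3% with a median of 51.6%. Near-identical copies of these hairpins, at 90% identity over 90% of the length, were sought among GENCODE M21 transcripts of genes elsewhere. They were found for Mir703 and Mir5123 alone of the 135 searched, so the counts of those genes are uncertain. Sequence outside annotated transcripts was not searched, so copies there remain possible for any of the 135. The other 30 genes were not searched, among them Mir6236, Mir1938, Mir1192 and Mir7652 of the 20 highest.

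Replicate 1 held 36692204 counts over 30840 genes and replicate 2 held 33489967 counts over 28921 genes. Basal keratinocyte markers summed to 11436 and 15672 CPM (counts scaled to the library total), with all 8 markers detected, so the labelled cell type was present. Fibroblast markers (13199 and 6550 CPM) and myeloid markers (7433 and 8091 CPM) were also detected, 8 of 8 in each list. In such bulk libraries, fewer cells of a type and less RNA per cell cannot be told apart. The X-linked noncoding RNA Xist had 112587 and 11 counts, and the Y-linked gene Ddx3y had 0 and 1618. The Y-linked gene Uty had 0 and 2394. This pattern is female in replicate 1 and male in replicate 2, so the libraries did not share an animal. Sex therefore cannot be told apart from any other difference between them. The labels do not say how many animals each library held. The p-values measure only the difference between these 2 libraries, and they cover counting error only.

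The 165 microRNA genes took 5172 counts in replicate 1 and 5210 in replicate 2, which was 0.0141% and 0.0156% of each library. Another 245 microRNA genes had 1 to 9 counts, 955 counts together, and 770 (65.3%) had none. Among all genes of the files, 35.2% had no count. The counts were concentrated in a few genes: the highest gene held 14.1% of the 10382 counts of these 165 genes, the 5 highest held 37.5% and the 20 highest held 61.0%. At the other end 65 genes had 10 to 19 summed counts, 62 had 20 to 49, 20 had 50 to 99 and 18 had 100 or more. The median level was 0.340 CPM, with a range from 0.136 to 21.3, against 5.15 CPM over the 23690 genes of the files with at least 10 counts. The microRNA genes had a median length of 84 bases (51 to 136) against 3062 for those 23690 genes, and CPM values are not corrected for length. A total of 163 genes had a count in both libraries, 77 had 10 or more in each and 22 reached 1 CPM in both. A count of 0 allows a level of 0.0818 CPM in replicate 1 and of 0.0896 CPM in replicate 2.

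The count minimum passed through the middle of a continuous range. The 9 genes at exactly 10 counts were Mir100, Mir148b, Mir193a, Mir1962, Mir3470b, Mir466q, Mir5101, Mir6481 and Mir7035. The 14 genes just outside, at 9 counts, were Mir141, Mir194-1, Mir1967, Mir3104, Mir378a, Mir423, Mir5108, Mir532, Mir666, Mir6964, Mir6995, Mir744, Mir7679 and Mir8103. Mir141, an epithelial miR-200 family gene, had 2 and 7 counts, while Mir100 had 3 and 7, so the minimum separated genes that differed by 1 count.

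**Figure D1:**
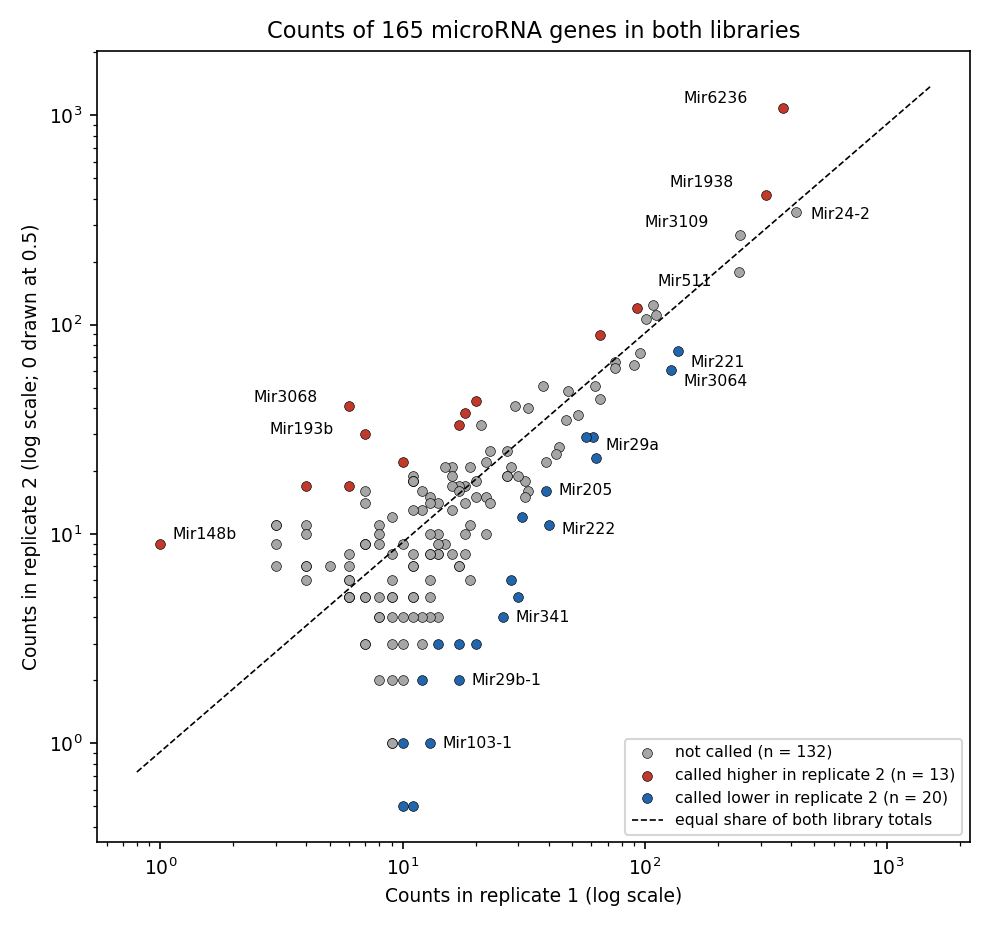
Counts of the 165 microRNA genes in replicate 1 (x axis, log scale) and replicate 2 (y axis, log scale, 0 drawn at 0.5); the dashed line marks an equal share of both library totals, and colour marks the 13 genes called higher and the 20 called lower in replicate 2 by the exact binomial test. Mir6236 lies far above the line at 371 and 1089 counts, and the scatter around the line widens toward low counts.

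Mir6236 had the highest level, with 371 counts in replicate 1 and 1089 in replicate 2 (21.3 ± 15.8 CPM, mean ± SD, n = 2). It lay in no host gene, and the libraries stood far apart. Whether its counts are reads of ribosomal RNA was not tested, so its level, its rank and its share of 14.1% may not be those of a primary microRNA transcript. Mir24-2 came next with 420 and 344 counts (10.9 ± 0.831 CPM, n = 2), close in both libraries. Mir1938, in an intron of Ifrd1, had 315 and 417 counts.

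The next genes by level lay in introns of abundant mRNAs. Mir3109, in an intron of Anxa2, the gene of the membrane-binding protein annexin A2, had 247 and 268 counts. Mir1192, in an intron of Klf9, a transcription factor gene that responds to glucocorticoid, had 245 and 179 counts. Mir511 had 108 and 124 counts and lay in an intron of Mrc1, the macrophage mannose receptor gene, which had 78155 and 66905 counts. Mrc1 marks macrophages rather than keratinocytes, and it was the highest of the 8 myeloid markers by mean CPM.

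Among the rest of the 20 highest genes, Mir3061 (111 and 111 counts), Mir27a (101 and 106), Mir674 (75 and 66) and Mir1249 (48 and 48) were close in both libraries. Mir3061 overlapped an exon of Ppp2ca, the catalytic subunit gene of protein phosphatase 2A. Mir6352 (93 and 120 counts) lay in an intron of Epha4, an ephrin receptor gene, and Mir1931 (38 and 51) in an intron of Cdk17. Exons held Mir3064 (128 and 61 counts, in Ddx5, an RNA helicase gene whose product is itself a Drosha cofactor), Mir7652 (95 and 73, in G3bp1, a stress granule protein gene) and Mir6516 (65 and 89, in the noncoding RNA gene Snhg20). Mir7-1 (90 and 64 counts) lay in an intron of Hnrnpk, an RNA-binding protein gene, and Mir6398 (75 and 62) lay opposite an intron of Macf1. Mir221 (137 and 75), Mir23a (62 and 51) and Mir16-1 (65 and 44) completed the 20.

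By position on GRCm38, 35 of the 165 genes lay within 10 kb of another microRNA gene on the same strand, and 12 such clusters held 2 or more of them, 25 genes in all. Of the 331 microRNA genes in clusters, 10.6% reached 10 counts, against 15.3% of the lone genes.

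The miR-23a cluster, whose microRNAs are known from haematopoietic and muscle cells, had the most counts. In order along the transcript, Mir23a had 62 and 51 counts, Mir27a had 101 and 106 and Mir24-2 had 420 and 344. Mir24-2, whose hairpin is printed above, was the highest of the 3 in both libraries, and no library pair overlapped another.

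Mir221 and Mir222, which share a seed and are known to repress the cell cycle inhibitor p27, had 137 and 75 counts and 40 and 11 counts. Mir221 exceeded Mir222 in each library, and both were lower in replicate 2. Mir29a and Mir29b-1, of a family known to repress collagen mRNAs, had 61 and 29 counts and 17 and 2 counts, again with both lower in replicate 2. The Dleu2 hairpins Mir16-1 and Mir15a, known for repressing Bcl2, had 65 and 44 counts and 11 and 18 counts.

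In the miR-17-92 cluster, a growth-promoting cluster in the RNA Mir17hg, Mir17 had 17 and 3 counts and Mir18 had 11 and 18. Mir20a had 0 and 5 counts, and Mir19a, Mir19b-1 and Mir92-1 had none, so the order of Mir17 and Mir18 changed between the libraries. Mir193b had 7 and 30 counts and its partner Mir365-1 had 17 and 33, both higher in replicate 2. Mir181a-2 (32 and 15) and Mir181b-2 (23 and 25) also changed order between libraries. The imprinted hairpin Mir341 had 26 and 4 counts and its neighbour Mir1188 had 13 and 5, while Mir370 had 0 and 3. Mirlet7c-1 had 17 and 7 counts beside Mir99a with 7 and 9, and Mir143 had 11 and 4 beside Mir145a with 8 and 4. Mir202 (12 and 13 counts) lay beside Mir7686 (9 and 5), and Mir875 (11 and 8) beside Mir599 (5 and 7).

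**Figure D2:**
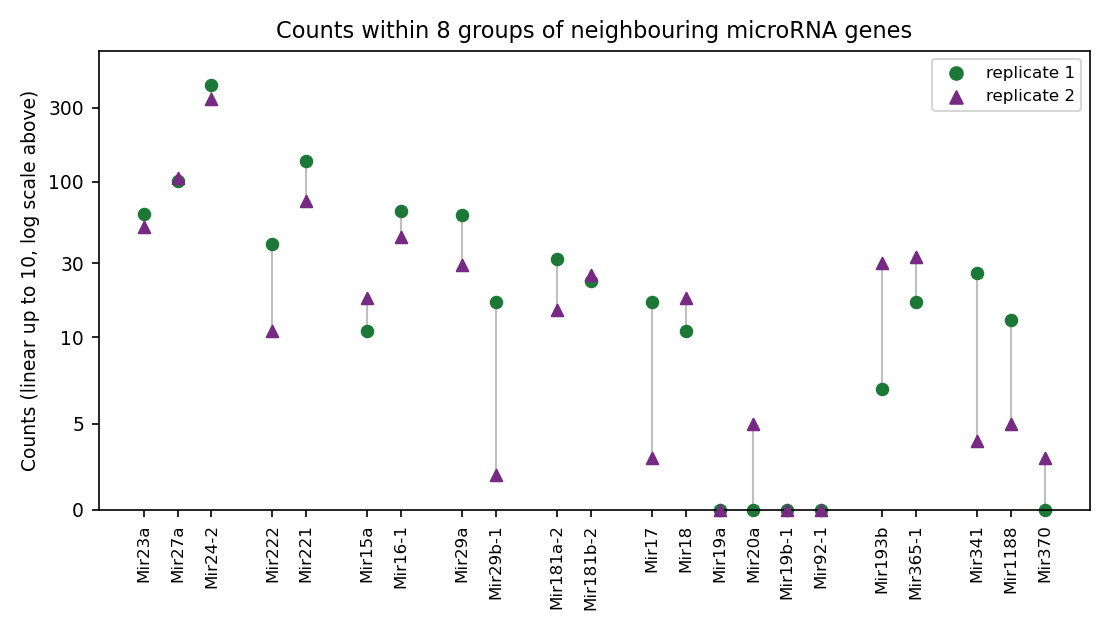
Counts of each hairpin of 8 of the 12 clusters with 2 or more microRNA genes at 10 or more counts, with the cluster's hairpins side by side on the x axis and both libraries as separate markers joined by a line (y axis, linear up to 10 and log scale above). Mir24-2 stands at 420 and 344 counts above Mir27a at 101 and 106 and Mir23a at 62 and 51, and Mir19a, Mir19b-1 and Mir92-1 lie at 0.

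Lists of well-studied microRNAs held 128 genes of the files, of which 26 (20.3%) reached 10 counts, 23 had 1 to 9 and 79 had none. Of the other 1052 microRNA genes, 139 (13.2%) reached 10 counts.

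Of 12 epithelial microRNA genes, 3 reached 10 counts. Mir205, whose hairpin is printed above, had 39 and 16 counts (0.770 ± 0.414 CPM, n = 2), Mir200c had 12 and 3, and Mir200a had 4 and 7. Mir141 (2 and 7 counts), Mir200b (2 and 6), Mir182 (2 and 6) and Mir96 (0 and 1) were below the minimum. Mir203, Mir31, Mir183, Mir184 and Mir429 had no count. The libraries did not share a direction for the miR-200 family: Mir200c had more counts in replicate 1, and Mir200a, Mir200b and Mir141 had more in replicate 2, all with 12 counts or fewer in a library.

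In the let-7 family, known for restraining growth genes, 2 of 12 genes passed, Mir98 (18 and 14 counts) and Mirlet7c-1 (17 and 7), and 6 had no count. The miR-23/27/24 genes passed in 3 of 8 cases, all in the cluster above, and the paralogous cluster had no count at Mir23b, Mir27b and Mir24-1. The miR-15 and miR-16 family had 2 of 10, and the miR-17-92 family and its paralogs 2 of 15. Of the miR-99, miR-100 and miR-125 genes 3 of 6 passed, with 7 and 9 counts at Mir99a, 3 and 7 at Mir100 and 7 and 5 at Mir125b-1. None of 3 miR-34 genes, known p53 targets, and none of 6 Hox cluster microRNA genes passed. Of 14 genes tied to stress and inflammation 5 passed, led by Mir221, Mir29a and Mir222, and Mir146b had 14 and 8 counts.

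MicroRNA genes of other cell types were also counted. Mir142b, which lies opposite an intron of Mir142hg in the haematopoietic Mir142 locus, had 15 and 21 counts. The other 6 of 7 haematopoietic genes had none. Among these were Mir142, on the same strand as Mir142hg, and the myeloid microRNA gene Mir223. Myeloid marker mRNAs were high in the same libraries, at 7433 and 8091 CPM, and their part in the counts of Mir142b and Mir511 was not tested. Of 8 fibroblast and mural genes 3 passed, led by Mir140 with 27 and 19 counts, followed by Mir143 and Mir145a. Mir133a-1, known from striated muscle, had 44 and 26 counts inside Mir133a-1hg (413 and 307), and 8 of 10 muscle microRNA genes had none. Skeletal muscle markers summed to 93.9 and 72.4 CPM. All 4 endothelial microRNA genes had no count, with endothelial markers at 71.5 and 46.7 CPM. Of 13 neural, pigment cell and other genes only Mir7-1 passed, and 11 had no count.

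**Figure D3:**
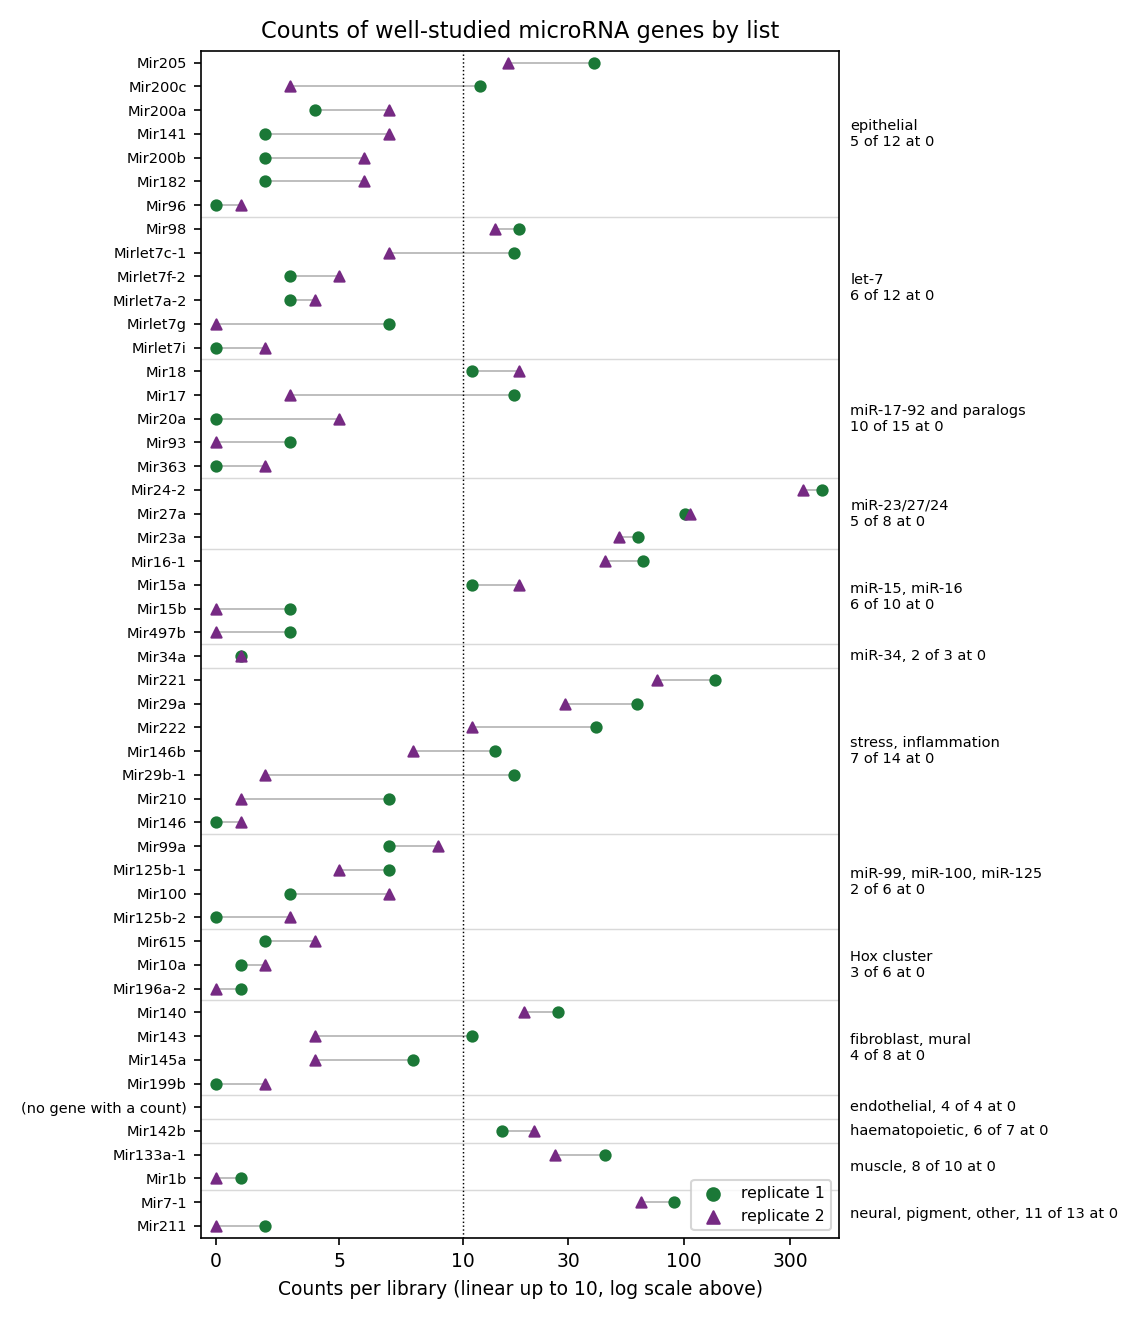
Counts per library (linear up to 10, log scale above) of well-studied microRNA genes with at least 1 count, grouped by list, with the number at 0 beside each list and the minimum of 10 as a dotted line. Mir24-2 is the highest of these genes and all 4 endothelial genes are at 0.

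Several well-known hairpins had no count although their host RNA was measured. Of the 79 well-studied genes at 0, 40 had a same-strand host gene in the files. For 16 of those 40 genes, some of which share a host, the host was at 10 CPM or more. A further 24 of the 79 had no host. Mir21a, a microRNA known from wounds and skin tumours, had no count while Vmp1, whose exon overlaps it, had 11191 and 10839. Mir22 had none while Mir22hg had 1114 and 948 counts. Mir155, known from activated immune cells, had none beside 85 and 17 counts of Mir155hg. Mir199a-2 and Mir214 had none beside 481 and 185 counts of Dnm3os, and Mir125a, Mir99b and Mirlet7e had none beside 2648 and 1991 counts of Spaca6. Of the 16 genes with a host at 10 CPM or more, 7 overlapped a host exon. Mir99b and Mirlet7e were not among those 7, as they lay in an intron of Spaca6. The labels do not state how reads shared by a hairpin and an overlapping host exon were assigned. The part of that choice in the zeros of hairpins that overlap an exon was not tested.

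Most of the 165 genes lay inside other genes. By GRCm38 annotation 96 lay in a same-strand intron, 29 overlapped a same-strand exon, 21 lay opposite an intron, 1 lay opposite an exon and 18 had no host. Read as a share of each class, 17.0% of 566 genes in same-strand introns reached 10 counts, 11.2% of 260 in same-strand exons, 29.2% of 72 opposite introns and 7.26% of 248 with no host. The labels name no strand setting for the counting, so reads of a host on the opposite strand cannot be told apart from reads of the microRNA gene.

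Intronic genes passed more often when the host was abundant. In same-strand introns, 0 of 159 passed where the host was under 1 CPM, 9 of 74 at 1 to 10 CPM, 40 of 211 at 10 to 100 CPM and 45 of 111 (40.5%) at 100 CPM or more. For opposite-strand introns the same bins held 1 of 12, 3 of 17, 11 of 33 and 5 of 8. For same-strand exons they held 0 of 35, 4 of 41, 9 of 103 and 11 of 50 (22%). Among hosts at 100 CPM or more, 25.2% of intronic and 66% of exonic microRNA genes had no count. The median host of the 118 same-strand hosted genes was at 92.5 CPM, against 15.96 CPM for the 666 hosted microRNA genes under the minimum.

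**Figure D4:**
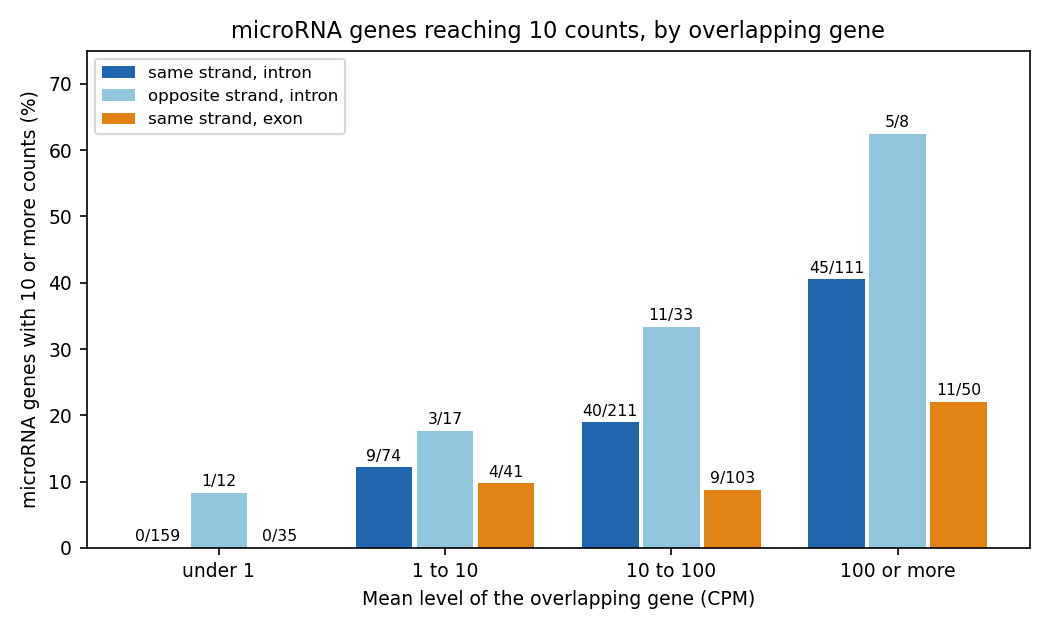
Share of microRNA genes with 10 or more counts (y axis, percent) by the mean level of the overlapping gene in both libraries (x axis, 4 bins in CPM), with bars for same-strand introns, opposite-strand introns and same-strand exons and the number of genes over each bar. The bars for same-strand introns rise from 0 of 159 to 45 of 111, and those for same-strand exons reach 11 of 50.

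Per kilobase of annotated length, 77 of 94 intronic genes with a measured host were below their host, at a median of 34.7% of the host's CPM per kb (1.46% to 668%). Reads of 150 bases can overlap a hairpin from well outside it, and the microRNA genes had a median length of 84 bases. Division by annotated length therefore raises such short genes beside their long hosts, and these percentages were not corrected for it. Across these 94 pairs, which lie in 92 hosts, the log2 level of the microRNA gene correlated with that of its host at Pearson r = 0.39 and Spearman rho = 0.30. These are a description: the pairs share libraries and depth, and reads from an intron also come from unspliced host RNA. Mir511 was at 10.8% of Mrc1 per kb and Mir3109 at 11.6% of Anxa2, while Mir1192 was at 97.5% of Klf9 and Mir6352 at 202% of Epha4.

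Comparing replicate 2 with replicate 1, 13 of the 165 genes were higher and 20 lower (7.88% and 12.1%; 33 called, 20%) by a two-sided exact binomial test, Benjamini-Hochberg adjusted over 23690 genes at 0.05. Over all those genes 44.1% were called, 16.9% higher and 27.2% lower, a split that moved with scaling from 3993 higher and 6443 lower to 5376 and 5069 under TMM factors and to 5494 and 4977 under DESeq2 size factors. Genes with 10 to 99 counts were called in 21.3% of cases (5.87% higher, 15.4% lower), and microRNA genes of that range in 18.4% (27 of 147; 6.12% higher, 12.2% lower), so the share was near the background. Of the 18 genes with 100 or more counts, 6 were called (33.3%), 22.2% higher and 11.1% lower, against 44.6% (13.9% higher, 30.7% lower) of all 7972 genes with 100 to 1460 counts, where 1460 is the highest count of the 18. The edgeR exact test, with a biological coefficient of variation of 22.8% from both libraries, called 0 of the 165, with 20 at an unadjusted p under 0.05, and 69 of all genes (0.291%). That coefficient came from the same 2 libraries that the edgeR test compared, so their difference was itself counted as variance. This lowers the number of calls by design, and few edgeR calls do not show that the libraries were alike. The median log2 difference of replicate 2 minus replicate 1, on log2(CPM + 0.5), was -0.13 for the microRNA genes, -0.07 for all tested genes and -0.12 for genes of 10 to 99 counts. These medians depended on the pseudocount: with 0.1 they were -0.24, -0.08 and -0.21, with 1 they were -0.0893, -0.0565 and -0.0777, and with none, tried after seeing the data, -0.28, -0.09 and -0.27. In all, 99 microRNA genes were lower and 66 higher in replicate 2.

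Among the 13 genes higher in replicate 2 were Mir6236, Mir3068 and Mir193b. Mir6236 was 3.22-fold higher per library total (95% exact interval 2.86 to 3.63, exact binomial adjusted p 4.89e-95, edgeR exact test adjusted p 0.101). The mitochondrial ribosomal RNA genes mt-Rnr1 (237 and 549 counts, 2.54-fold) and mt-Rnr2 (559 and 1062 counts, 2.08-fold) were higher in the same library, and their part in the Mir6236 difference was not tested. Without Mir6236, the microRNA genes held 4801 and 4121 counts, 0.0131% and 0.0123% of each library, which turns the order of the libraries. Mir3068 had 6 and 41 counts, a 7.49-fold ratio (3.16 to 21.6), and Mir193b had 7 and 30, a 4.70-fold ratio (2.02 to 12.7). Mir362 (4 and 17 counts, 4.66-fold) and Mir148b (1 and 9 counts, 9.86-fold, interval 1.37 to 432) rested on few reads. The smallest adjusted p of the edgeR exact test among the 165 was 0.0587, for Mir3068.

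Among the 20 genes lower in replicate 2 were the seed-sharing pairs Mir221 with Mir222 and Mir29a with Mir29b-1. Mir221 had a ratio of replicate 2 to replicate 1 of 0.600 (0.446 to 0.801, exact binomial adjusted p 0.00121) and Mir222 a ratio of 0.301. Mir29a had a ratio of 0.521 and Mir29b-1 one of 0.129. Mir205 had a ratio of 0.449 (exact binomial adjusted p 0.0173), and its host RNA Mir205hg, with 1048 and 718 counts, was also called lower. Mir3064 had a ratio of 0.522 while its host Ddx5 was at 1208 ± 1.89 CPM (n = 2). By the exact binomial test, which called 27.2% of all tested genes lower and 16.9% higher, fibroblast marker mRNAs were lower in replicate 2 in 8 of 8 cases. Spinous keratinocyte markers were higher in 8 of 8 (4174 and 7366 CPM). Of 8 basal keratinocyte markers 7 were higher and 1 lower, and of 8 myeloid markers 3 were higher and 2 lower. Lower calls, with 0 higher, came in 5 of 7 endothelial, 5 of 6 mural, 5 of 6 melanocyte, 4 of 6 erythroid and 3 of 6 skeletal muscle markers. The part of these marker differences in those of the microRNA genes was not tested.

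The largest falls were at low counts. Mir6394 had 11 and 0 counts, 3.35-fold lower if replicate 2 is set at a floor of 3 counts. Mir1962 had 10 and 0, 3.04-fold lower on the same floor. Both folds leave out the counting error of replicate 1, so they are not lower bounds. Mir103-1 had 13 and 1 counts, Mir3473f had 10 and 1 and Mir29b-1 had 17 and 2. Mir341 had 26 and 4 counts, and its imprinted host RNA Rian had 1840 and 697. Mir335 had 12 and 2 counts beside 416 and 290 of its imprinted host Mest. In all, 26 of the 33 called genes differed by more than 2-fold. Of the 33, 27 had 10 to 99 counts, where the exact binomial test calls mostly large ratios. The same share was not taken over all tested genes, so nothing particular to microRNA genes is read from it. Of the 6 X-linked genes among the 165 (of 90 on the X chromosome), 2 were called lower, Mir221 and Mir222, and 2 higher, Mir362 and Mir505. With 6 genes, beside 44.1% called over all tested genes and 20% over the 165, nothing particular to the X chromosome is read from this.

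The differences of intronic genes between the libraries were set beside those of their hosts. Across the 94 pairs the log2 differences had Pearson r = 0.22 and Spearman rho = 0.17. In the 16 pairs with 50 or more counts at the microRNA gene, a selection made after seeing the data, the values were 0.54 and 0.57. The pairs share the libraries and, in part, the same unspliced RNA, and low counts add noise to the ratio, so no p is given.

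**Figure D5:**
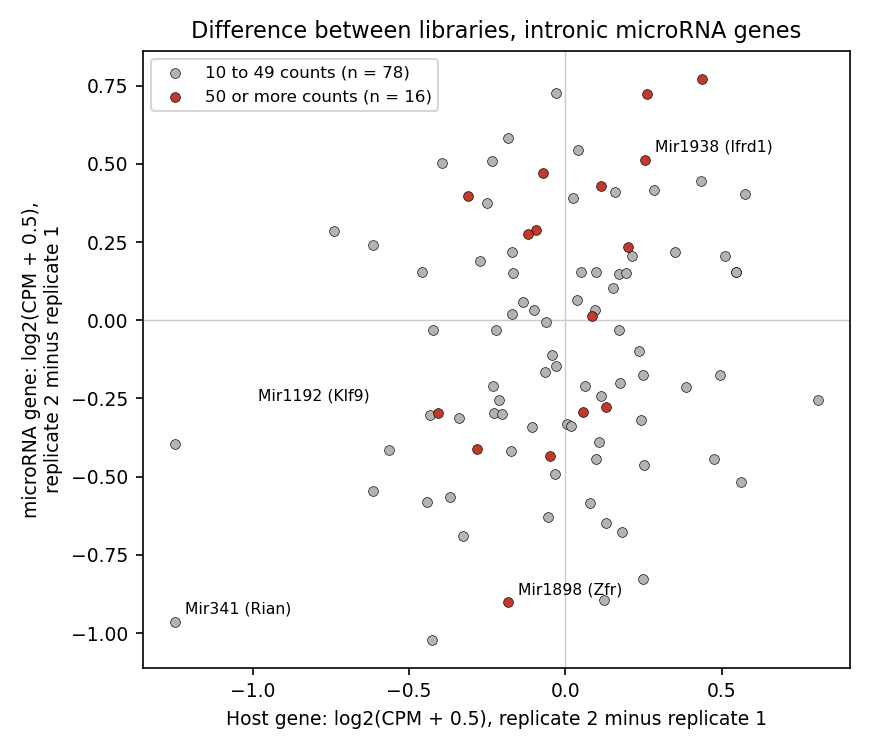
Log2 difference (replicate 2 minus replicate 1, CPM + 0.5) of each intronic microRNA gene against that of its host gene, with the 16 pairs of 50 or more counts in red and the other 78 in grey. The 94 pairs fall in all 4 quadrants (Pearson r = 0.22; 0.54 for the 16), and Mir341 with Rian lies at the lower left.

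The genes that make and use microRNAs were measured at far more counts than the hairpins. Of 22 listed, 21 had 10 or more counts and 20 were at 10 CPM or more in both libraries. The exceptions were the let-7 inhibitors Lin28a (2 and 5 counts) and Lin28b (38 and 20). For the nuclear step, Drosha was at 51.8 ± 6.91 CPM, its partner Dgcr8 had 1023 and 651 counts, and the cofactors Ddx5 and Ddx17 were at 1208 ± 1.89 and 340 ± 34.6 CPM (n = 2 each). The export receptor Xpo5 was at 67.0 ± 6.33 CPM and Dicer1 at 86.9 ± 8.70 CPM. Of the Argonaute genes Ago2 was at 174 ± 8.86, Ago1 at 141 ± 6.25, Ago3 at 73.9 ± 6.74 and Ago4 at 43.2 ± 10.8 CPM, uncorrected for length.

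By the exact binomial test 7 of the 21 tested machinery genes were higher and 10 lower in replicate 2, where 16.9% of all tested genes were called higher and 27.2% lower. The edgeR exact test called none, and TMM factors and DESeq2 size factors each gave 8 higher and 6 lower. The machinery genes had a median of 76.7 CPM against 5.15 CPM for all tested genes, and the share called rose with counts, as given above. No share was taken for genes of like counts, so nothing particular to the machinery is read from these calls. Among called genes Ago4 had the largest rise, at 1.43-fold (1306 and 1703 counts), and Dgcr8 the largest fall, with a ratio of 0.697. Drosha was 1.21-fold higher and Dicer1 had a ratio of 0.867.

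Of 20 listed host noncoding RNA genes 16 were in the files and 11 had 10 or more counts. None was called higher and 6 were called lower in replicate 2 by the exact binomial test, which called 27.2% of all tested genes lower. These were Mir155hg (85 and 17 counts), Dnm3os (481 and 185), Mir100hg (281 and 147), Ftx (301 and 173), Mir205hg (1048 and 718) and Dleu2 (597 and 455). Mir17hg (258 and 262 counts), Mir22hg (1114 and 948), Mir99ahg (260 and 255), Mirg (41 and 27) and Mirt1 (36 and 37) did not pass. Mir124a-1hg, Mir670hg and Mirt2 had 3 counts or fewer, and Mir124-2hg and Mir9-3hg had none.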

How the data were processed

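Total RNA of 2 libraries of sorted keratinocytes was depleted of ribosomal RNA and sequenced as paired reads, per the labels' protocols. The deposited files give raw read counts per gene and gene lengths; per the submitters' processing notes, featureCounts and build mm39 were used. The aligner, annotation release, strand setting and treatment of reads with several matches were not given in the sources used here. CPM is a gene's count divided by the library total, scaled to 1000000.

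The libraries were compared with an exact two-sided binomial test (scipy 1.17.1) given the ratio of library totals, over all genes with 10 or more summed counts, with Benjamini-Hochberg adjustment at 0.05. A quasi-likelihood fit was not possible with 1 library a side, which leaves 0 residual degrees of freedom. The alternatives were the edgeR 4.0.16 exact test, with a common dispersion from an intercept-only fit, TMM factors and DESeq2 1.42.0 size factors. That fit treated both libraries as replicates, so the difference under test entered its dispersion. The test was checked on simulated Poisson counts, which hold no variation between libraries beyond counting error and set changes in some genes. The real libraries vary more, so that check does not show how the p-values behave here.

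Hosts and clusters came from GENCODE M21 and RefSeq tables on GRCm38.p6 by symbol. Since the counts are on mm39, no coordinates are printed. Near copies were sought among GENCODE M21 transcripts with blastn 2.17.0.

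Named genes are the 20 highest by mean CPM, up to 3 highest of each list, epithelial genes under 10 counts, the 5 largest ratios in each direction among called genes, genes at 10 and at 9 counts, machinery and host RNA genes, and their hosts and cluster partners; others named (zero-count hairpins and their hosts, mt-Rnr1, mt-Rnr2, Mir505) were chosen after their values were seen. The members and lists were chosen with earlier results of these data known.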

Additional observations from a re-analysis of the deposited data

How the results depend on the processing

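No paired analysis was possible because both libraries belong to 1 group. With a minimum of 5 or 20 summed counts, or of 10 in each library, 254, 100 and 77 microRNA genes passed in place of 165. The edgeR exact test called 0 microRNA genes (0 higher, 0 lower), 0 machinery genes and 69 genes in all (18 higher, 51 lower). TMM and DESeq2 size factors each shifted the log2 ratio of a gene, taken without a pseudocount, by 0.08. These factors gave 32 called microRNA genes each and 6 machinery genes lower. The median log2 difference of the microRNA genes was -0.0876 under TMM, -0.0854 under DESeq2 factors, -0.24 with a pseudocount of 0.1, -0.0893 with 1, -0.28 with none and -0.11 at 20 or more counts. Leaving out a replicate, the median level ran from 0.328 to 0.382 CPM and the share of the 10 highest from 42.2% to 54.6%. Without Mir6236, the share of all counts was 0.0131% and 0.0123%. The host correlation of differences was 0.54 at 50 or more counts. The log2 difference of Mir674 turned to 0.0241 (TMM) and 0.0302 (DESeq2). The causes were not tested. Depth limits the low genes: at 10 summed counts the interval of the Mir148b ratio ran from 1.37 to 432.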
